A study of Arabidopsis thaliana with 24 samples.

Results

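BBX28, BBX29, BBX30, BBX31 and BBX32, which encode small B-box zinc finger proteins of Arabidopsis thaliana, are described here together with HY5 and HYH, the bZIP transcription factor genes they are tied to in light signalling. These 7 genes of the 32833 in the count table were chosen by identifier because transcripts of BBX29 to BBX31 were lower in primed plants, so every difference of theirs between primed and not-primed plants below is a description without a test. All plants were wild type (WT) and whole rosettes were sequenced. Primed plants came from seed treated with methyl jasmonate, the volatile ester of the wound hormone jasmonic acid, and not-primed plants from seed treated with water. Each kind was sampled after 24 hours with spider mites (Tetranychus urticae, which empty single leaf cells), after 24 hours with caterpillars of the butterfly Pieris brassicae (which chew leaves), or uninfested, with 4 libraries in each of the 6 groups. The labels give no plant age and leave it unsaid whether a replicate was a single plant or pooled material. The p-values therefore describe sample-to-sample spread, part of which may be technical.

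B-box proteins hold zinc-binding domains through which they contact other proteins, and many of them work in light signalling. HY5 promotes development in the light by binding DNA at elements with an ACGT core, such as the G-box CACGTG, and in darkness the COP1 ubiquitin ligase marks it for degradation. HYH is its close homolog. BBX28 binds HY5 and hinders its access to DNA, BBX29 is the nearest relative of BBX28, and BBX32 opposes HY5 output. BBX30 and BBX31 are microproteins, little more than a single B-box, that bind the flowering regulator CONSTANS and bring it to the corepressor TOPLESS, and their promoters are known targets of HY5.

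The predicted proteins had 223 residues for BBX28, 215 for BBX29, 117 for BBX30, 121 for BBX31, 225 for BBX32, 180 for HY5 and 149 for HYH, the longest product of each gene in the RefSeq annotation of TAIR10.1. BBX28 and BBX29 were identical at 68.7% of aligned residues, BBX30 and BBX31 at 65.5%, and HY5 and HYH at 53.0%. The 250 bases upstream of the annotated start of BBX29, BBX30 and BBX31 are shown because the choice of genes rested on these 3 and because promoters of BBX30 and BBX31 are known HY5 targets. They are read 5′ to 3′ on the strand of the gene from RefSeq TAIR10.1, with every ACGT core and the G-box around it in capitals. The BBX29 window lies at chr5:22115540-22115789 on the minus strand, that of BBX30 at chr4:8708591-8708840 on the plus strand, and that of BBX31 at chr3:7709934-7710183 on the minus strand.
BBX29: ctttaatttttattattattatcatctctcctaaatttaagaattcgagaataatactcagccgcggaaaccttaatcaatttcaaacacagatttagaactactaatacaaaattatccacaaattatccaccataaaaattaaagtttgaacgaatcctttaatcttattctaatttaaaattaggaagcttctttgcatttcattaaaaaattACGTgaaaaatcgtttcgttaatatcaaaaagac
BBX30: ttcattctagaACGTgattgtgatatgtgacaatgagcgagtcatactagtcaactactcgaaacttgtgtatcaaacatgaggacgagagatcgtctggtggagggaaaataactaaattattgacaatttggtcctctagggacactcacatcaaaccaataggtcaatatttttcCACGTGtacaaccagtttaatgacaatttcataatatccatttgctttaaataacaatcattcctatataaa
BBX31: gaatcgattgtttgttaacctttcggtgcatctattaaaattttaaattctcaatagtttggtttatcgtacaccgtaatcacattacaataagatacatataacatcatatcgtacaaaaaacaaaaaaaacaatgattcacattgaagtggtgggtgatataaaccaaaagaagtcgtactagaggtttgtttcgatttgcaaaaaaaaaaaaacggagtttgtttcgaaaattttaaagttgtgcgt
The G-box, whose letters CACGTG read the same on both strands, stood in the BBX30 window between 72 and 67 bases before the start, and in no window of the other 6 genes. It was present in 6.49% of the 27443 windows of the same length upstream of annotated genes. The bare core ACGT, which also reads the same on both strands and lies within each G-box, stood in the windows of 5 of the 7 genes, those of BBX28, BBX29, BBX30, HY5 and HYH, against 44.1% of all windows. Further motifs were searched on either strand. The CCA1-binding site AAAAATCT stood only in the BBX28 window (6.69% of all windows). The MYC2 variant CACATG stood only in that of HY5 (11.1%). The evening element AAAATATCT stood in no member window (2.36%). These matches describe letters and not binding sites.

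By the same annotation, BBX28 (AT4G27310) spans chr4:13675537-13677055 and BBX30 (AT4G15248) chr4:8708841-8709482, both on the plus strand. BBX29 (AT5G54470) spans chr5:22114304-22115539 and HY5 (AT5G11260) chr5:3593335-3595073, both on the minus strand. BBX31 (AT3G21890, chr3:7708833-7709933) and BBX32 (AT3G21150, chr3:7412445-7413727) lie on the minus strand of chromosome 3, and HYH (AT3G17609, chr3:6023844-6024710) on its plus strand. BBX30 and BBX31 each have another B-box gene as a neighbour, BBX9 at a gap of 284 bases from BBX30 and BBX10 at a gap of 486 bases from BBX31. BBX9 and BBX10 were nearly silent, with 9 counts each over all 24 libraries, and were not tested. BBX32 overlaps its neighbour AT3G21140 by 13 bases on the same strand, where reads cannot be assigned to one gene.

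Library totals lay between 15852109 and 27986799 counts, and 20038 genes, all 7 members among them, passed a filter on low counts. Leaf mesophyll markers such as RBCS1A and LHCB1.3 were abundant in every library, the root hair genes RHD6 and LRX1 were at 0, the root marker PYK10, which rosettes also express, averaged between 102 and 342 FPKM by group, and the summed level of 3 seed storage markers was at most 0.322 FPKM (fragments scaled to gene length and library size, as deposited). In not-primed uninfested plants, replicates 1 and 2 stood apart from replicates 3 and 4 on the first principal component of all genes, at 86.5 and 85.3 against 34.8 and 35.6, and no label names a batch. The same split appeared in BBX28, with 71.9 and 72.6 against 59.4 and 57.5 CPM (counts scaled to normalized library size, the usual CPM), and in HYH, with 46.2 and 47.6 against 37.5 and 38.8 CPM. BBX29, BBX30, BBX31, BBX32 and HY5 did not split in this way in that group. In not-primed plants under caterpillars the same replicate numbers also stood apart, at −16.8 and −12.6 against 0.02 and −0.29. There BBX30 had 20.1 and 20.1 against 13.03 and 13.1 CPM, and BBX31 16.7 and 20.2 against 11.7 and 14.2 CPM. BBX32 had 15.6 and 14.3 against 18.2 and 17.4 CPM, and HYH 33.9 and 33.5 against 34.7 and 35.7 CPM. No alternative setting left out either pair of this group together.

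Per gene length, HYH and BBX28 were the most abundant members. BBX29 was the least abundant except in not-primed plants under caterpillars, where HY5 averaged 8.17 ± 0.53 FPKM and BBX29 9.26 ± 2.14 FPKM (SD, n = 4). In primed uninfested plants the mean levels were 42.5 ± 2.4 FPKM for BBX28, 40.2 ± 2.0 for HYH, 9.99 ± 1.27 for BBX32, 8.58 ± 0.46 for HY5, 7.36 ± 1.96 for BBX30, 4.28 ± 0.91 for BBX31 and 3.83 ± 0.37 for BBX29 (SD, n = 4). In not-primed uninfested plants they were 45.8 ± 5.8 FPKM for BBX28, 54.9 ± 6.8 for HYH, 14.8 ± 1.9 for BBX32, 10.9 ± 1.1 for HY5, 14.02 ± 2.19 for BBX30, 9.83 ± 0.24 for BBX31 and 7.01 ± 0.29 for BBX29 (SD, n = 4). Across the 6 groups the highest group mean in CPM exceeded the lowest 4.10 times for BBX30, 3.86 times for BBX31, 3.63 times for BBX29 and 3.09 times for BBX32. The same ratio was 1.94 for HYH, 1.73 for HY5 and 1.42 for BBX28. BBX28 thus had the flattest profile and BBX30 the steepest.

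**Figure D1:**
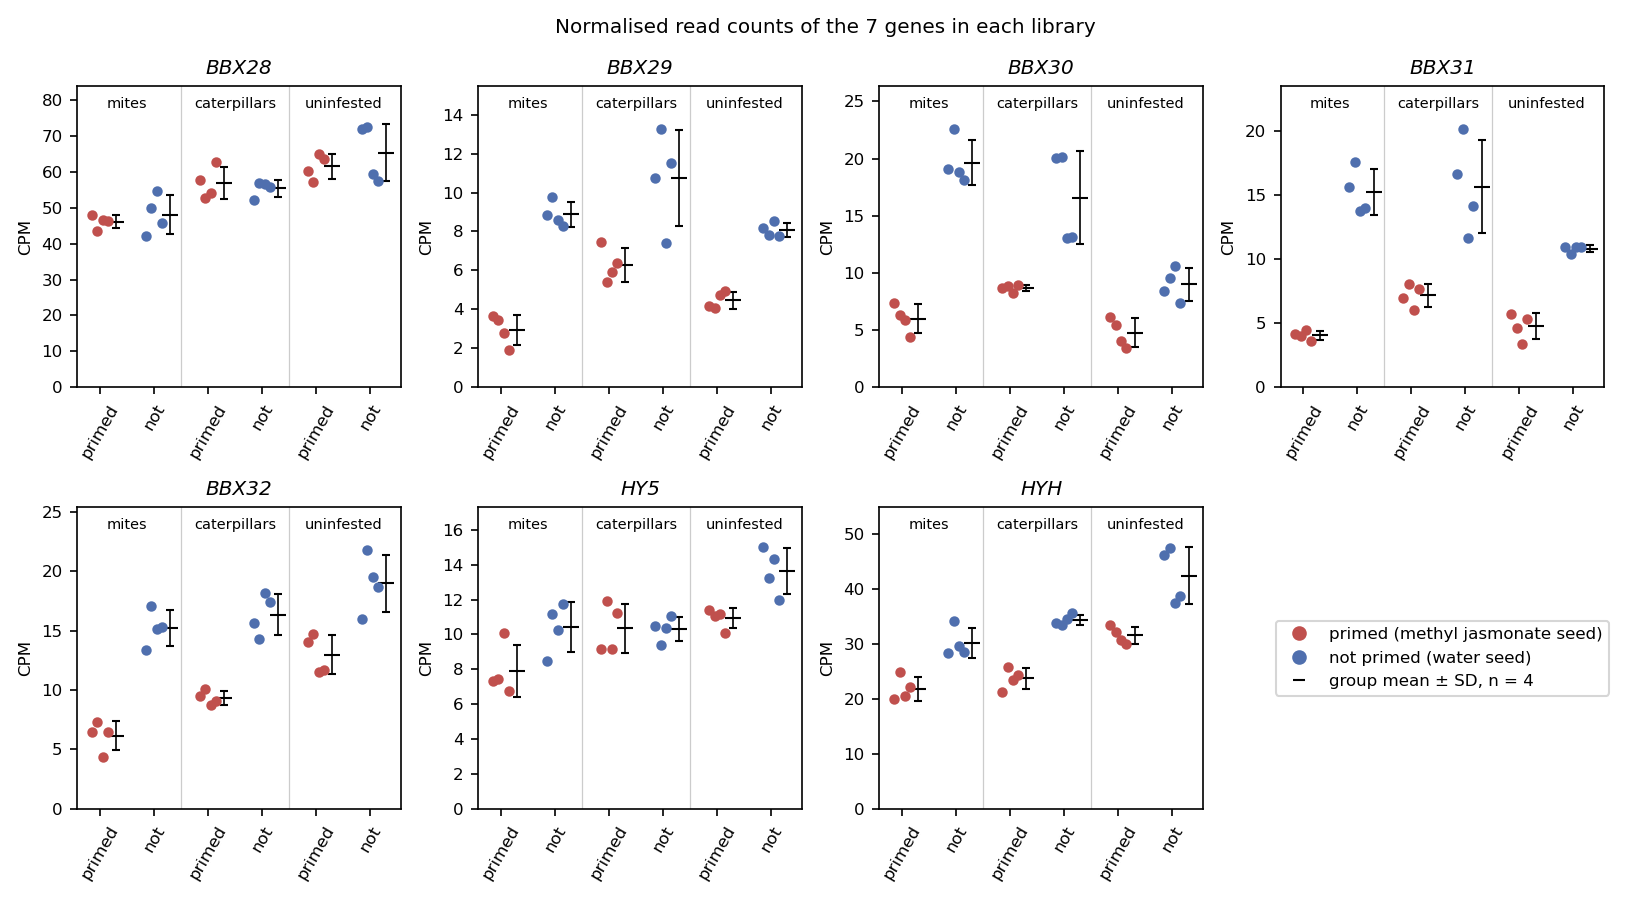
Normalised counts (CPM, linear axes from 0) of the 7 genes in each of the 24 libraries, with infestation state across each panel and primed plants (red) left of not-primed plants (blue); points are libraries and black marks the group mean ± SD (n = 4). BBX29 to BBX32 have lower means in primed plants in each state, most widely under mites, while BBX28 does not separate by seed treatment.

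The first question is how the level of each gene differed between primed and not-primed plants. BBX30, the microprotein gene with the G-box, had 7.41, 6.30, 5.90 and 4.38 CPM in primed plants under mites, against 19.1, 22.6, 18.8 and 18.2 CPM in not-primed plants under mites. Under caterpillars it had 8.71, 8.82, 8.28 and 8.95 CPM in primed plants, against 20.1, 20.1, 13.03 and 13.1 CPM in not-primed plants. Without pests it had 6.18, 5.48, 4.09 and 3.40 CPM in primed plants, against 8.45, 9.52, 10.6 and 7.37 CPM in not-primed plants. Every primed library was below every not-primed library of the same state, and the not-primed caterpillar libraries held a pair near 20 and a pair near 13 CPM. The log2 fold changes of primed over not-primed plants were −1.72 ± 0.17 under mites, −0.92 ± 0.17 under caterpillars and −0.91 ± 0.18 without pests (± SE, as for all fold changes below). In rosettes, fewer cells of a type and less RNA per cell cannot be told apart.

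BBX31, the other microprotein gene, had the lowest priming fold changes of the 7 genes in each state. It had 4.12, 4.04, 4.44 and 3.64 CPM in primed plants under mites, against 15.6, 17.6, 13.7 and 13.96 CPM in not-primed plants under mites. Under caterpillars the values were 6.99, 8.07, 6.03 and 7.68 CPM in primed plants, against 16.7, 20.2, 11.7 and 14.2 CPM in not-primed plants. In uninfested plants they were 5.73, 4.64, 3.41 and 5.33 CPM in primed plants, against 10.96, 10.4, 10.97 and 10.98 CPM in not-primed plants. The groups did not overlap in any state, and the 4 not-primed uninfested libraries were close together. The log2 fold changes were −1.91 ± 0.15 under mites, −1.12 ± 0.15 under caterpillars and −1.18 ± 0.15 without pests, so that the primed level under mites was lower by a factor of 3.76.

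BBX29, the relative of BBX28, counted between 54 and 300 reads per library. Primed plants under mites had 3.65, 3.45, 2.79 and 1.92 CPM, against 8.86, 9.74, 8.59 and 8.30 CPM in not-primed plants under mites. Primed plants under caterpillars had 7.46, 5.38, 5.93 and 6.36 CPM, against 10.8, 13.2, 7.40 and 11.5 CPM in not-primed plants under caterpillars. Primed uninfested plants had 4.16, 4.06, 4.76 and 4.94 CPM, against 8.17, 7.81, 8.53 and 7.79 CPM in not-primed uninfested plants. The groups were separate under mites and without pests, and overlapped under caterpillars, where not-primed replicate 3 fell just below primed replicate 1. The log2 fold changes were −1.60 ± 0.17 under mites, −0.77 ± 0.16 under caterpillars and −0.85 ± 0.17 without pests.

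BBX32, the opponent of HY5 output, showed the same order of the seed treatments. It was part of a set chosen with earlier results of these data known, so this order is no independent result. It had 6.47, 7.29, 4.39 and 6.45 CPM in primed plants under mites, against 13.4, 17.1, 15.2 and 15.3 CPM in not-primed plants under mites. It had 9.49, 10.073, 8.74 and 9.04 CPM in primed plants under caterpillars, against 15.6, 14.3, 18.2 and 17.4 CPM in not-primed plants under caterpillars. It had 14.1, 14.7, 11.5 and 11.7 CPM in primed uninfested plants, against 15.97, 21.8, 19.5 and 18.7 CPM in not-primed uninfested plants. No state showed overlap, and the primed libraries under mites were the lowest of all. The log2 fold changes were −1.30 ± 0.13 under mites, −0.82 ± 0.13 under caterpillars and −0.55 ± 0.12 without pests.

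BBX28, which hinders DNA binding by HY5, overlapped between seed treatments in every state, with log2 fold changes of −0.06 ± 0.08 under mites, 0.04 ± 0.08 under caterpillars and −0.09 ± 0.08 without pests. The last value was 0.07 without not-primed uninfested replicates 1 and 2 and −0.27 without replicates 3 and 4. HYH, the bZIP homolog, had 20.02, 24.9, 20.5 and 22.2 CPM in primed plants under mites, against 28.4, 34.2, 29.8 and 28.6 CPM in not-primed plants under mites. It had 21.3, 25.8, 23.5 and 24.4 CPM in primed plants under caterpillars, against 33.9, 33.5, 34.7 and 35.7 CPM in not-primed plants under caterpillars. It had 33.5, 32.3, 30.7 and 30.1 CPM in primed uninfested plants, against 46.2, 47.6, 37.5 and 38.8 CPM in not-primed uninfested plants. The primed libraries were lower without overlap in each state. The log2 fold changes of HYH were −0.46 ± 0.08 under mites, −0.54 ± 0.08 under caterpillars and −0.43 ± 0.08 without pests, the last being −0.27 without not-primed replicates 1 and 2 and −0.60 without replicates 3 and 4.

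HY5 itself differed less by seed treatment. It had 7.30, 7.45, 10.061 and 6.77 CPM in primed plants under mites, against 8.50, 11.2, 10.2 and 11.7 CPM in not-primed plants under mites. It had 9.18, 11.9, 9.15 and 11.2 CPM in primed plants under caterpillars, against 10.5, 9.42, 10.4 and 11.1 CPM in not-primed plants under caterpillars. It had 11.4, 11.1, 11.2 and 10.103 CPM in primed uninfested plants, against 15, 13.2, 14.3 and 11.96 CPM in not-primed uninfested plants. The groups overlapped under both pests and were separate without pests. The log2 fold changes were −0.41 ± 0.12 under mites, 0.00 ± 0.12 under caterpillars and −0.32 ± 0.12 without pests.

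Of the 7 genes, 4 (BBX30, BBX31, BBX32 and HYH) were lower in primed plants without overlap in all 3 states, as were 1.19% of all tested genes. State by state, lower primed libraries without overlap were seen for 5 of the 7 under mites (5.66% of all tested genes), 4 under caterpillars (6.49%) and 6 without pests (8.44%). BBX29 to BBX31 chose the set, so nothing is read from these counts. The median log2 fold change of the 7 genes was −1.30 under mites, −0.77 under caterpillars and −0.55 without pests, where that of all tested genes was 0.00, 0.00 and 0.01.

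**Figure D2:**
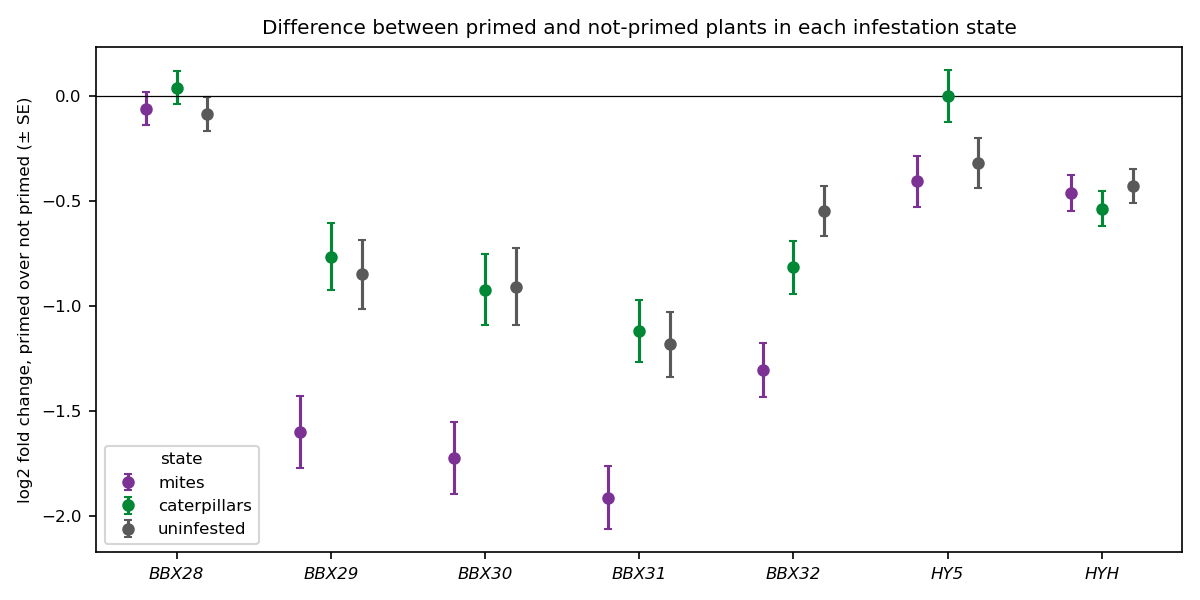
Log2 fold change of primed over not-primed plants (points ± SE, n = 4 libraries per group) for each gene under mites, under caterpillars and without pests. BBX29 to BBX32 reach between −1.30 and −1.91 under mites, while BBX28 stays between −0.09 and 0.04.

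The second question is how infestation altered these genes when both seed treatments were averaged, a contrast that does not use the difference between primed and not-primed plants. Under mites, BBX30 rose, while BBX28, BBX32, HY5 and HYH fell. The changes were called at an adjusted p under 0.05 in edgeR's quasi-likelihood test, with Benjamini-Hochberg adjustment over all 20038 tested genes. In all, 5 of the 7 genes passed, against 59.9% of tested genes, with 1 higher (29.7%) and 4 lower (30.2%), so the number of calls was not far from that of genes at large. BBX30 rose by 0.72 ± 0.13 (log2, adjusted p = 2.09e-05) and HYH fell by 0.51 ± 0.06 (adjusted p = 3.94e-08). BBX32 fell by 0.70 ± 0.09 (adjusted p = 2e-07), BBX28 by 0.43 ± 0.06 (adjusted p = 3.11e-07) and HY5 by 0.43 ± 0.09 (adjusted p = 0.000102). BBX29 at −0.24 ± 0.12 (adjusted p = 0.0849) and BBX31 at 0.13 ± 0.11 (adjusted p = 0.318) did not pass. BBX29 passed without primed mite replicate 1 (−0.30, adjusted p = 0.0404) and was −0.14 without primed mite replicate 4 (adjusted p = 0.301), and no other omission of a single library made it pass.

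Under caterpillars all 7 genes passed in edgeR, against 38.8% of tested genes. The 3 genes that rose (background 18.9%) were the microprotein genes BBX30 and BBX31 together with BBX29, and the 4 that fell (background 19.9%) were BBX28, BBX32, HY5 and HYH. BBX30 rose by 0.87 ± 0.13 (adjusted p = 4.31e-06), BBX31 by 0.56 ± 0.11 (adjusted p = 0.000142) and BBX29 by 0.45 ± 0.12 (adjusted p = 0.00289). HYH fell by 0.36 ± 0.06 (adjusted p = 2.24e-05) and BBX32 by 0.35 ± 0.09 (adjusted p = 0.00252). HY5 fell by 0.24 ± 0.09 (adjusted p = 0.0264) and BBX28 by 0.18 ± 0.06 (adjusted p = 0.0144). The call of BBX28 ended without not-primed uninfested replicates 1 and 2 (−0.10, adjusted p = 0.172), as did that of HY5 (−0.22, adjusted p = 0.0854). The HY5 call also ended when not-primed uninfested replicate 1, primed caterpillar replicate 1 or primed caterpillar replicate 3 was left out (−0.22 to −0.21, adjusted p between 0.0527 and 0.0599).

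Between the pests, BBX28, BBX29, BBX31, BBX32 and HYH were higher under caterpillars than under mites in the average over seed treatments. The values by kind of plant follow as an untested description, and lay apart for BBX29, BBX31 and BBX32 but little for BBX28 and HYH. BBX29 was higher by 0.69 ± 0.12 (edgeR adjusted p = 4.38e-05), BBX31 by 0.43 ± 0.11 (adjusted p = 0.00204), BBX32 by 0.35 ± 0.09 (adjusted p = 0.00304) and BBX28 by 0.25 ± 0.06 (adjusted p = 0.000813). HYH passed narrowly at 0.15 ± 0.06 (adjusted p = 0.0476), which made 5 of the 7 genes called (background 37.1%), all of them higher (19.8%). None was lower (background 17.3%), also at an unadjusted p under 0.05 and by DESeq2. The HYH call ended in 20 of the 34 alternative settings, 16 of them the omission of a single library (0.12 to 0.15, adjusted p between 0.053 and 0.163). These libraries were not-primed uninfested 3 and 4, not-primed mite 1, 3 and 4, not-primed caterpillar 3 and 4, primed uninfested 2, 3 and 4, primed mite 1, 3 and 4, and primed caterpillar 2, 3 and 4. BBX30 (0.15 ± 0.12, adjusted p = 0.372) and HY5 (0.19 ± 0.09, adjusted p = 0.0863) did not pass, although HY5 did without primed mite replicate 3 (0.25, adjusted p = 0.019). As a description by kind of plant, caterpillars over mites gave BBX29 1.11 ± 0.17 in primed and 0.27 ± 0.15 in not-primed plants, and BBX31 0.83 ± 0.16 in primed and 0.04 ± 0.14 in not-primed plants. BBX32 had 0.59 ± 0.13 in primed and 0.11 ± 0.12 in not-primed plants, and BBX30 0.55 ± 0.18 in primed and −0.25 ± 0.16 in not-primed plants. In primed plants all 5 B-box genes were higher under caterpillars without overlap. In not-primed plants the libraries of both pests overlapped for all 7 genes. The share of all tested genes without overlap is not given for these comparisons, so nothing is read from these counts. The difference between the kinds of plant is made of the contrasts that chose the genes and was not tested. For BBX28 the values were 0.31 ± 0.08 in primed and 0.20 ± 0.08 in not-primed plants, for HY5 0.39 ± 0.12 and −0.01 ± 0.12, and for HYH 0.11 ± 0.09 and 0.19 ± 0.08 in the same order. Summed leaf mesophyll markers moved with the averaged comparison, at 31060 to 35310 FPKM over both kinds of plant under caterpillars against 25130 to 28220 FPKM under mites, and all 5 markers passed as higher. Their part in the result was not tested.

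**Figure D3:**
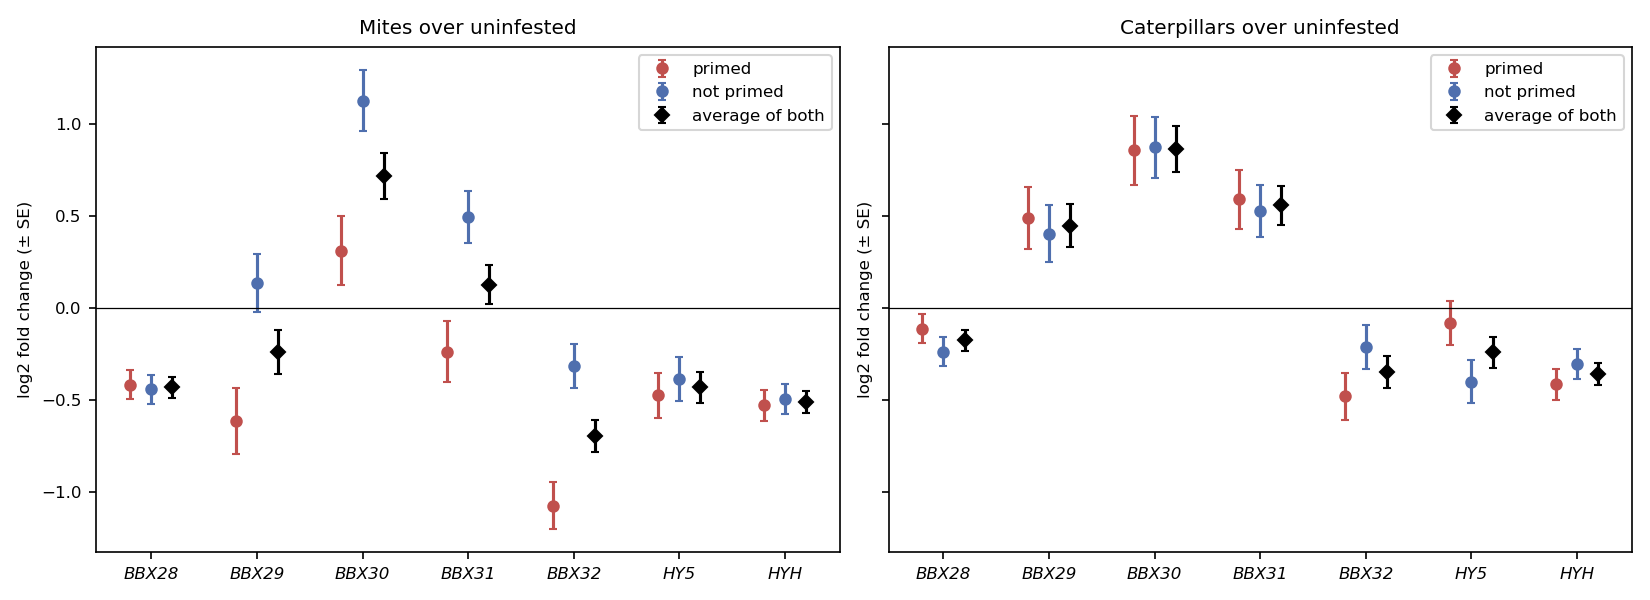
Log2 fold change over uninfested plants (points ± SE, n = 4 libraries per group) under mites on the left and under caterpillars on the right, for primed plants, not-primed plants and their average. Under mites the points of BBX29 to BBX32 lie lower in primed plants. Under caterpillars the widest gaps are those of HY5 (−0.08 in primed, −0.40 in not-primed plants) and BBX32 (−0.48 in primed, −0.21 in not-primed plants).

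The averages under mites covered differences between the kinds of plant, which are given as descriptions because they are made of the contrasts that chose the genes. Mites over uninfested plants gave BBX30 a log2 fold change of 0.31 ± 0.19 in primed plants and 1.13 ± 0.17 in not-primed plants. For BBX31 it was −0.24 ± 0.17 in primed plants and 0.49 ± 0.14 in not-primed plants, and for BBX29 it was −0.62 ± 0.18 in primed plants and 0.14 ± 0.16 in not-primed plants. For BBX32 it was −1.07 ± 0.13 in primed plants and −0.32 ± 0.12 in not-primed plants. The primed minus the not-primed value of this mite difference was −0.82 ± 0.25 for BBX30, −0.73 ± 0.22 for BBX31, −0.75 ± 0.24 for BBX29 and −0.76 ± 0.18 for BBX32. BBX28 (0.03 ± 0.11), HY5 (−0.09 ± 0.17) and HYH (−0.04 ± 0.12) had values within their SE of 0. With caterpillars the same difference was −0.02 ± 0.26 for BBX30, 0.06 ± 0.21 for BBX31, 0.09 ± 0.23 for BBX29 and −0.27 ± 0.17 for BBX32. It was 0.32 ± 0.17 for HY5, which had −0.08 ± 0.12 in primed and −0.40 ± 0.12 in not-primed plants under caterpillars over uninfested plants, 0.13 ± 0.11 for BBX28 and −0.11 ± 0.12 for HYH. These differences between kinds of plant were not tested, and within each kind both pests share the uninfested libraries.

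The order of the groups differed between the genes. BBX30 was highest in not-primed plants under mites (19.7 ± 2.0 CPM) and under caterpillars (16.6 ± 4.0), which overlapped, and lowest in primed uninfested plants (4.79 ± 1.27), which overlapped with primed plants under mites (5.998 ± 1.25; SD, n = 4 each). BBX31 had 15.7 ± 3.6 CPM in not-primed plants under caterpillars and 15.2 ± 1.8 under mites, and was lowest in primed plants under mites (4.06 ± 0.33), which overlapped with primed uninfested plants (4.78 ± 1.01). BBX29 was lowest in primed plants under mites too (2.95 ± 0.78 CPM), below every primed uninfested library, and highest in not-primed plants under caterpillars (10.7 ± 2.5). BBX32 was highest in not-primed uninfested plants (19.0 ± 2.4 CPM) and lowest in primed plants under mites (6.15 ± 1.24), and its 3 not-primed groups overlapped with their neighbours in the order. HYH was likewise highest in not-primed uninfested plants (42.5 ± 5.1 CPM) and lowest in primed plants under mites (21.9 ± 2.2), which overlapped with primed plants under caterpillars (23.8 ± 1.9). BBX28 ran between 46.2 ± 1.8 CPM in primed plants under mites and 65.4 ± 8.0 CPM in not-primed uninfested plants, and each group overlapped with the next in the order. HY5 ran between 7.90 ± 1.47 CPM in primed plants under mites and 13.6 ± 1.3 CPM in not-primed uninfested plants, and only the last group stood clear of the next.

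Set against the bZIP genes per length, BBX29 to BBX31 together made up 0.454 ± 0.097 of the HY5 and HYH level in primed plants under mites, against 1.10 ± 0.07 in not-primed plants under mites (SD, n = 4, ratios of summed FPKM). Under caterpillars the ratio was 0.660 ± 0.069 in primed plants and 0.943 ± 0.235 in not-primed plants, and without pests it was 0.316 ± 0.030 in primed plants and 0.474 ± 0.067 in not-primed plants. The primed and not-primed libraries overlapped under caterpillars and were separate in the other states. The 5 B-box genes together summed to 52.6 ± 3.3 FPKM in primed plants under mites, against 97.5 ± 7.6 FPKM in not-primed plants under mites. BBX28 made up 61.5% ± 3.7 of that sum in primed plants under mites and 34.5% ± 2.9 in not-primed plants under mites, and its own level was 32.2 ± 1.3 FPKM in primed plants and 33.6 ± 3.7 FPKM in not-primed plants under mites. The ratio of HYH to HY5 was 3.74 ± 0.30 in primed plants under caterpillars, against 5.41 ± 0.24 in not-primed plants under caterpillars, without overlap. It overlapped in the other states, with 4.62 ± 0.97 in primed and 4.76 ± 0.62 in not-primed plants under mites and 4.69 ± 0.16 in primed and 5.08 ± 0.66 in not-primed uninfested plants. These ratios hold the contrast that chose the genes and carry no test.

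**Figure D4:**
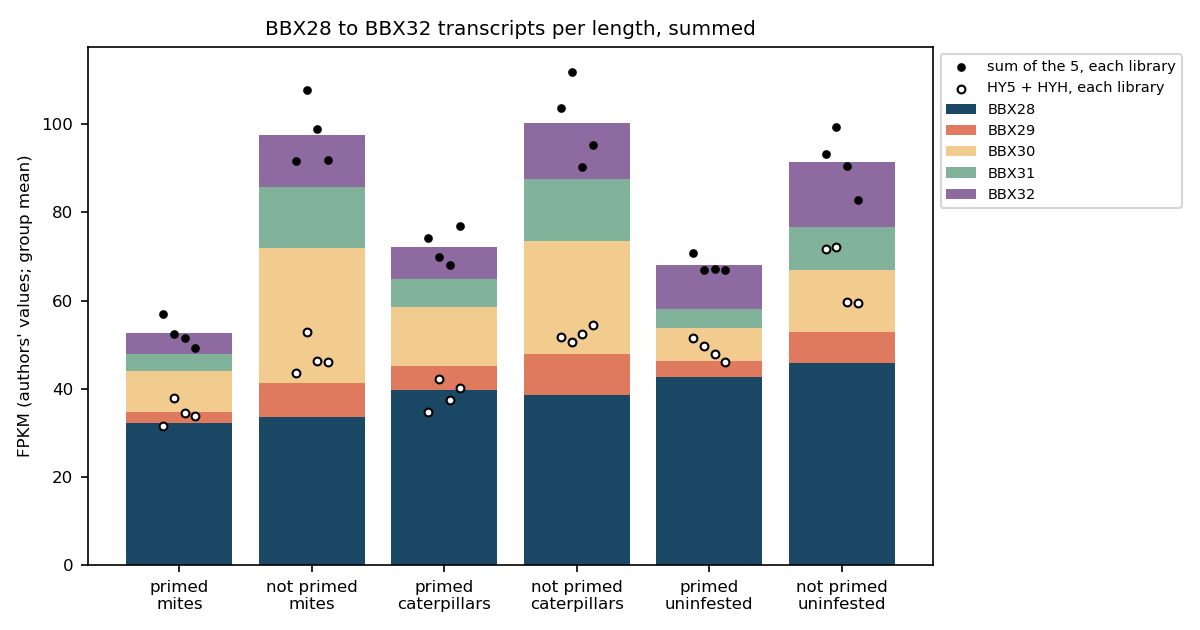
Stacked group means of the deposited FPKM of BBX28 to BBX32, with filled points for their sum and open points for HY5 plus HYH in each library; primed plants stand left of not-primed plants in each state. The sum is 52.6 FPKM in primed plants under mites and 97.5 FPKM in not-primed plants under mites, with a similar BBX28 segment in both.

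Across the 24 libraries, the levels of BBX29, BBX30 and BBX31 ran together (Pearson r of log2 CPM 0.914 for BBX29 and BBX31, 0.904 for BBX30 and BBX31, 0.793 for BBX29 and BBX30). These correlations hold the group differences, and after the group means were taken out they were 0.397, 0.537 and 0.430 in the same order. BBX32 ran with HYH (r = 0.892, and 0.439 within groups) more than with BBX30 (0.482, and 0.160 within groups). BBX28 ran with HY5 at 0.670 and with BBX30 at −0.245. The genes most like the mean of BBX29 to BBX31 over the 24 libraries were UP6 (r = 0.936), MYC4, a bHLH factor of jasmonate signalling (0.918), AT2G31560 (0.915), AT4G19450 (0.914) and the RING ubiquitin ligase gene RHA2A (0.902). Under mites, MYC4 averaged 15.8 FPKM in primed and 28.8 FPKM in not-primed plants, UP6 25.9 and 36.8, and RHA2A 10.45 and 18.6. AT2G31560 averaged 23.0 and 33.9 FPKM and AT4G19450 18.8 and 25.7 FPKM in the same order. These genes were picked for likeness to genes lower in primed plants, so their lower levels there are no separate result. All of these correlations are descriptions, with shared libraries and group structure.

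By member, the most alike genes to BBX28 were AT2G43030 (r = 0.925), the photosystem I subunit gene PSAN (0.922) and UMAMIT13 (0.916). Those to BBX29 were the arogenate dehydratase gene ADT6 (0.924), BBX31 and AT2G31560 (0.905). BBX30 was most like the cytochrome P450 gene CYP89A5 (0.923), UP6 (0.918) and RHA2A (0.912), and BBX31 most like UP6 (0.931), MYC4 (0.916) and BBX29. BBX32 was most like SQP1 (0.933), AT2G15020 (0.924) and AT2G27420 (0.921). HYH was most like the cytokinin response factor gene CRF2 (0.951), AT2G27420 (0.947) and AT1G01320 (0.946), and HY5 had lower values, with AT1G53800 (0.866), KCS11 (0.853) and AT3G29375 (0.847). AT2G27420 was thus listed for both BBX32 and HYH, and UP6 for both microprotein genes.

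Among the other B-box genes, more were higher than lower in primed plants. Of 27 listed, 23 were tested, and edgeR called 5 higher and 2 lower in primed than in not-primed plants under mites (background 3.54% higher, 2.82% lower). Under caterpillars 6 were higher and 0 lower (background 3.99% and 4.16%; 2 were lower at an unadjusted p under 0.05 and 0 by DESeq2), and without pests 6 were higher and 1 lower (7.44% and 7.35%). BBX14 was higher in primed plants by 1.14 ± 0.07 under mites (adjusted p = 1.83e-11), by 0.72 ± 0.07 under caterpillars (adjusted p = 1.2e-07) and by 0.56 ± 0.07 without pests (adjusted p = 3.05e-06). BBX17 was higher by 1.37 ± 0.15 under mites (adjusted p = 5.19e-07), and BBX6 by 0.65 ± 0.08 under caterpillars (adjusted p = 6.41e-06) and 0.70 ± 0.08 without pests (adjusted p = 1.39e-06). Both passed in the remaining states too. BBX17 had 0.93 ± 0.15 under caterpillars (adjusted p = 0.000165) and 0.91 ± 0.15 without pests (adjusted p = 0.000131). BBX6 had 0.64 ± 0.08 under mites (adjusted p = 4.66e-06). The 2 lower in primed plants under mites were BBX18 (−0.44 ± 0.07, adjusted p = 0.000155) and BBX19 (−0.44 ± 0.08, adjusted p = 0.000269). The 1 lower without pests was BBX18 (−0.40 ± 0.07, adjusted p = 0.000402). Averaged over seed treatments, 3 rose and 12 fell under mites and 2 rose and 9 fell under caterpillars, with a median log2 fold change of −0.22 and −0.13 (all tested genes −0.01 and −0.01). The background was 29.7% higher and 30.2% lower under mites, and 18.9% and 19.9% under caterpillars. BBX3, a close relative of CONSTANS, fell most clearly under mites, by 1.22 ± 0.05 (adjusted p = 3.63e-15), and BBX16 fell by 0.77 ± 0.05 (adjusted p = 2.79e-12). Caterpillars against mites gave 9 higher and 2 lower (background 19.8% and 17.3%), led by BBX3 (0.62 ± 0.05, adjusted p = 3.32e-09) and BBX19 (0.47 ± 0.05, adjusted p = 1.19e-07).

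Of 16 genes known as HY5 targets, 2 rose and 10 fell under mites, 4 rose and 5 fell under caterpillars, and 10 were higher and 0 lower under caterpillars than under mites (0 lower also at an unadjusted p under 0.05 and by DESeq2). Among all tested genes the shares were 29.7% and 30.2% under mites, 18.9% and 19.9% under caterpillars, and 19.8% and 17.3% between the pests. The nitrate reductase gene NIA2 fell by 0.82 ± 0.05 (adjusted p = 1.15e-12) and the flavonol synthase gene FLS1 by 1.11 ± 0.08 (adjusted p = 4.35e-12) under mites. The chalcone synthase gene CHS rose by 0.95 ± 0.06 (adjusted p = 3.24e-11) and the chalcone isomerase gene CHI by 0.67 ± 0.07 (adjusted p = 1.96e-08) under caterpillars. Between the pests CHI (0.77 ± 0.07, adjusted p = 3.94e-09) and FLS1 (0.85 ± 0.08, adjusted p = 4.19e-09) were higher under caterpillars. By seed treatment, 1 target was higher and 1 lower in primed plants under mites, 2 and 2 under caterpillars, and 4 and 4 without pests (2 and 6 without not-primed uninfested replicates 3 and 4). The background was 3.54% and 2.82% under mites, 3.99% and 4.16% under caterpillars, and 7.44% and 7.35% without pests. NIA2 was higher by 0.27 ± 0.07 (adjusted p = 0.0219) and SIG5, a plastid sigma factor gene, lower at −0.26 ± 0.07 (adjusted p = 0.0278) under mites. NIA2 was also higher under caterpillars (0.25 ± 0.07, adjusted p = 0.0302) and without pests (0.25 ± 0.07, adjusted p = 0.0185). RUP1, a repressor of UV-B signalling, was higher by 0.82 ± 0.18 (adjusted p = 0.00499) and the glutathione peroxidase gene GPX7 lower at −0.54 ± 0.15 (adjusted p = 0.0212) under caterpillars. RUP1 was also higher without pests (0.90 ± 0.18, adjusted p = 0.00103). Without pests SIG5 was higher by 0.37 ± 0.07 (adjusted p = 0.000869) and CHS lower at −0.45 ± 0.09 (adjusted p = 0.00102).

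Among 14 genes of light receptors and the COP1 module, 4 rose and 6 fell under mites (background 29.7% and 30.2%). Under caterpillars 3 rose and 2 fell (18.9% and 19.9%). Against mites, 4 were higher and 1 lower under caterpillars (19.8% and 17.3%). The phytochrome gene PHYB rose by 0.32 ± 0.04 under mites (adjusted p = 4.16e-07) and by 0.37 ± 0.04 under caterpillars (adjusted p = 1.58e-07). Under mites DET1, a repressor of light responses, fell by 0.29 ± 0.04 (adjusted p = 1.44e-06), and under caterpillars SPA1, a COP1 partner, rose by 0.23 ± 0.04 (adjusted p = 1.03e-05). SPA3 (0.29 ± 0.06, adjusted p = 0.000243) and SPA4 (0.22 ± 0.04, adjusted p = 0.000269) were higher under caterpillars than under mites. In primed against not-primed plants the counts were 3 higher and 4 lower under mites (background 3.54% and 2.82%). They were 4 and 1 under caterpillars (3.99% and 4.16%), and 3 and 1 without pests (7.44% and 7.35%). The cryptochrome gene CRY1 was higher in primed plants in each state, by 0.49 ± 0.06 under mites (adjusted p = 7.88e-07), 0.39 ± 0.06 under caterpillars (adjusted p = 4.15e-05) and 0.36 ± 0.06 without pests (adjusted p = 6.3e-05). CRY2 was higher by 0.51 ± 0.08 under caterpillars (adjusted p = 8.89e-05) and 0.49 ± 0.08 without pests (adjusted p = 8.26e-05). It was also higher under mites (0.47 ± 0.08, adjusted p = 0.000124). PHYB was lower at −0.38 ± 0.06 under mites (adjusted p = 0.000103). It was lower too under caterpillars (−0.22 ± 0.06, adjusted p = 0.0239) and without pests (−0.19 ± 0.06, adjusted p = 0.0352).

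Among 10 other bHLH and bZIP factors of light signalling, 1 rose and 7 fell under mites (background 29.7% and 30.2%). Under caterpillars 2 rose and 7 fell (18.9% and 19.9%), with 2 higher and 1 lower between the pests (19.8% and 17.3%). GBF3, a G-box binding factor gene, rose by 1.39 ± 0.11 under mites (adjusted p = 1.15e-10) while its relative GBF2 fell by 0.66 ± 0.06 (adjusted p = 2.25e-09). Under caterpillars PIF5 fell by 0.39 ± 0.04 (adjusted p = 3.39e-08) and PIF1 by 0.45 ± 0.06 (adjusted p = 2.08e-06), both phytochrome-interacting factor genes. Between the pests GBF3 was lower under caterpillars (−0.58 ± 0.11, adjusted p = 0.000125) and GBF2 higher (0.28 ± 0.07, adjusted p = 0.00133). By seed treatment 3 were higher in primed plants under mites (background 3.54%), 2 under caterpillars (3.99%) and 3 without pests (7.44%). In edgeR 0 were lower under either pest, also at an unadjusted p under 0.05 and by DESeq2, and 1 was lower without pests. The background of lower genes was 2.82% under mites, 4.16% under caterpillars and 7.35% without pests. PIF5 was higher in primed plants by 0.53 ± 0.06 under mites (adjusted p = 4.99e-07), 0.36 ± 0.06 under caterpillars (adjusted p = 0.000196) and 0.48 ± 0.06 without pests (adjusted p = 2.8e-06). PIF1 was higher by 0.52 ± 0.09 under mites (adjusted p = 0.000258), and PIF4 by 0.34 ± 0.07 under caterpillars (adjusted p = 0.00322) and 0.27 ± 0.07 without pests (adjusted p = 0.0105). PIF4 was also higher under mites (0.35 ± 0.07, adjusted p = 0.00233).

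Of 9 genes, for CONSTANS, the flowering genes FT, TSF and SOC1, and the TOPLESS corepressors, 8 were tested. CONSTANS, also counted as BBX1 among the other B-box genes, averaged between 0.11 and 0.24 FPKM in the 6 groups. Under mites 2 rose and 2 fell (background 29.7% and 30.2%), and under caterpillars 1 rose (18.9%). Between the pests 2 were higher and 2 lower (19.8% and 17.3%). The floral integrator gene SOC1 rose by 0.79 ± 0.06 under mites (adjusted p = 7.86e-11) and by 0.30 ± 0.06 under caterpillars (adjusted p = 0.000443), and the TOPLESS-related gene TPR3 rose by 0.32 ± 0.05 under mites (adjusted p = 1.82e-06). Both were lower under caterpillars than under mites (SOC1 −0.49 ± 0.06, adjusted p = 9.65e-07; TPR3 −0.20 ± 0.05, adjusted p = 0.00126). FT, the florigen gene that BBX30 and BBX31 are known to repress, averaged between 0.136 and 0.472 FPKM in the 6 groups. By seed treatment edgeR called 0 of the 8 under mites (0 also at an unadjusted p under 0.05 and by DESeq2), 1 higher under caterpillars and 2 higher without pests. The background was 3.54% higher and 2.82% lower under mites, and 3.99% and 7.44% higher in the other states. SOC1 was higher in primed plants by 0.32 ± 0.09 under caterpillars (adjusted p = 0.0243) and 0.64 ± 0.09 without pests (adjusted p = 2.18e-05), and TPR2 by 0.16 ± 0.05 without pests (adjusted p = 0.035).

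Markers of leaf cell types moved with the pests, and their part in the B-box results was not tested. Of all tested genes 29.7% rose and 30.2% fell under mites, and 18.9% rose and 19.9% fell under caterpillars. Between the pests 19.8% were higher and 17.3% lower under caterpillars. In primed against not-primed plants 7.44% were higher and 7.35% lower without pests, and 3.99% and 4.16% under caterpillars. Under mites all 5 mesophyll markers fell, with RBCS1A at −0.60 ± 0.05 and RBCS1B at −1.07 ± 0.09, and under caterpillars 1 rose and 3 fell, with RBCS1B at −0.59 ± 0.09 and RCA at −0.24 ± 0.04. Of 4 guard cell markers 2 fell under mites, KAT1 (−0.54 ± 0.06) and HT1 (−0.28 ± 0.12), and 2 under caterpillars, KAT1 (−0.23 ± 0.06) and MYB60 (−0.29 ± 0.11). The phloem gene SUC2 rose by 0.50 ± 0.05 under mites and by 0.31 ± 0.05 under caterpillars, while APL fell by 0.18 ± 0.06 under mites. The trichome genes GL2 and GL3 rose by 0.51 ± 0.07 and 0.59 ± 0.20 under mites and by 0.51 ± 0.07 and 1.13 ± 0.20 under caterpillars, and PYK10 rose by 1.34 ± 0.11 and 1.22 ± 0.11. Between the pests all 5 mesophyll markers were higher under caterpillars than under mites, among them RBCS1A (0.38 ± 0.05) and LHCB1.3 (0.36 ± 0.04). KAT1 (0.30 ± 0.06), APL (0.16 ± 0.06) and GL3 (0.54 ± 0.19) were also higher under caterpillars, and SUC2 (−0.19 ± 0.05) was lower. Without pests, 1 mesophyll marker was higher (LHCB2.1, 0.15 ± 0.05) and 2 were lower (RBCS1B, −0.63 ± 0.12, and RBCS1A, −0.21 ± 0.07) in primed than in not-primed plants. Of the trichome genes GL2 was higher (0.40 ± 0.10), and GL3 had −0.44 ± 0.30 (adjusted p = 0.366). Under caterpillars, 1 of the 5 mesophyll markers was lower in primed than in not-primed plants, RBCS1B (−0.50 ± 0.12). RBCS1A (−0.15 ± 0.07), RCA (−0.14 ± 0.06), LHCB1.3 (0.11 ± 0.06) and LHCB2.1 (0.10 ± 0.05) did not pass. The summed mesophyll markers were 31060 to 35280 FPKM in primed and 31300 to 35310 FPKM in not-primed plants under caterpillars. Of 4 guard cell markers 2 were lower in these primed plants, KAT1 (−0.37 ± 0.09) and FAMA (−0.32 ± 0.09). Under mites the same difference was −0.26 ± 0.09 for KAT1 (adjusted p = 0.0916) and 0.03 ± 0.07 for RBCS1A (adjusted p = 0.899), and the summed mesophyll markers were 25760 to 28220 FPKM in primed and 25130 to 27460 FPKM in not-primed plants.

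The circadian clock bears on B-box genes, many of which cycle over the day. Of 11 core clock genes, 5 rose and 4 fell under mites (background 29.7% and 30.2%). Under caterpillars 2 rose and 3 fell (18.9% and 19.9%), and 3 were higher and 3 lower between the pests (19.8% and 17.3%). The morning genes LHY and CCA1 fell under mites by 0.91 ± 0.04 (adjusted p = 1.37e-15) and 0.83 ± 0.04 (adjusted p = 5.56e-14), and under caterpillars by 0.32 ± 0.04 (adjusted p = 2.05e-07) and 0.34 ± 0.04 (adjusted p = 6.21e-07). They were higher under caterpillars than under mites, LHY by 0.58 ± 0.04 (adjusted p = 2.98e-11) and CCA1 by 0.49 ± 0.04 (adjusted p = 4.62e-09). By seed treatment 4 were lower in primed plants under mites and 0 higher in edgeR (2 at an unadjusted p under 0.05, 0 by DESeq2), 1 was higher and 3 lower under caterpillars, and 1 was higher and 3 lower without pests. Without not-primed uninfested replicates 1 and 2 the last count of lower genes was 0. Among all tested genes 3.54% were higher and 2.82% lower under mites, 3.99% and 4.16% under caterpillars, and 7.44% and 7.35% without pests. PRR9 was lower in primed plants at −0.88 ± 0.12 under mites (adjusted p = 1.71e-05) and −0.56 ± 0.12 without pests (adjusted p = 0.00257), and CCA1 at −0.34 ± 0.06 under mites (adjusted p = 0.000427). PRR9 was also lower under caterpillars, narrowly (−0.39 ± 0.12, adjusted p = 0.0493). PRR7 was higher by 0.28 ± 0.06 under caterpillars (adjusted p = 0.00385) and 0.30 ± 0.06 without pests (adjusted p = 0.0011), and LHY was lower at −0.20 ± 0.05 under caterpillars (adjusted p = 0.0186). LHY was also lower under mites (−0.22 ± 0.05, adjusted p = 0.0125) and without pests (−0.17 ± 0.05, adjusted p = 0.0324). The labels give no hour of harvest, and the part of time of day in the B-box differences was not tested.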

How the data were processed

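Rosette RNA of 24 libraries was sequenced from NEBNext Ultra libraries, per the labels' protocols. Reads were aligned with HISAT2 to TAIR10, per the submitters' processing notes; which tool counted them, with which annotation and strand setting, is not given in the sources used here. The authors deposited raw counts per gene, in whole numbers, and FPKM values per library, scaled by the authors by gene length and library size. Exon lengths implied by deposited counts over FPKM matched the RefSeq annotation of TAIR10.1 within 1% for 99.4% of 19387 genes, so the members were located there by locus identifier.

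Differential expression was computed from the counts with edgeR 4.0.16 under R 4.3.3 (TMM scaling, filterByExpr by group with a minimum count of 10, quasi-likelihood test, 2-sided). All 24 libraries entered 1 fit of 6 group means, and Benjamini-Hochberg adjusted p under 0.05 counted as a call. Each SE is the size of the log2 fold change divided by the root of its F statistic. CPM used the TMM library size. Likeness was the Pearson correlation of log2 CPM with a prior count of 2. Protein lengths and identities came from translated coding sequence aligned with Biopython 1.88. The fit was tested on simulated data. Alternatives were DESeq2 1.42.0 and its size factors, limma 3.58.1 on log2 FPKM with a pseudocount of 1 or 0.1, no filter, the compared groups alone, a replicate term and omission of libraries.

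The members and gene lists were chosen with earlier results of these data known. Members were tested only in contrasts of pests averaged over seed treatments. The text names all 7 members, BBX9 and BBX10, and for each list and contrast the 2 called genes with the smallest adjusted p. It also names the 3 genes most like each member and the 5 most like the mean of BBX29 to BBX31. FT, CONSTANS, and LHCB2.1 and GL3 without pests were added after their values were seen. Values of named genes in further contrasts, of BBX18, and of further mesophyll markers, were added in the same way.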

Additional observations from a re-analysis of the deposited data

Results flagged for a closer look

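In the not-primed uninfested group, replicate 2 had 10.38 CPM of BBX31, while the other 3 libraries lay within 10.96 to 10.98 CPM, so its gap to the nearest library took up nearly the whole range of the group. The gap is small beside the difference from primed uninfested plants, whose 4 libraries reached at most 5.73 CPM. This was 1 of 42 groups of 4 libraries looked at, and chance marks about 1 in 20 such groups.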

How the results depend on the processing

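Of the 714 tested values of members under 34 alternatives, 687 kept their direction and side of the threshold, 25 lost a call, 2 gained one and 0 changed sign. Of these alternatives 24 left out a single library. A library from a group outside the contrast bears on it only through scaling, filtering and the shared spread. Under mites 5 to 6 members passed, under caterpillars 5 to 7, and between the pests 4 to 5. When single libraries were left out these ranges were 5 to 6, 6 to 7 and 4 to 5. The median priming difference of BBX29 to BBX31 lay between −1.83 and −1.59 under mites, −1.03 and −0.82 under caterpillars, and −1.06 and −0.85 without pests. Of the untested priming values of members, 706 of 714 moved by less than 1 SD; BBX29 without pests was −0.73 and BBX31 under mites −1.66 by limma on log2(FPKM + 1).

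Same-numbered libraries did not deviate together: of 60 correlations 3 were over 0.1 (median 0.0205), so the numbers were not treated as pairs. With a replicate block the calls over all genes were 11960 under mites, 7704 under caterpillars and 7353 between the pests, where the fit without it gave 11994, 7781 and 7438. Depth limits BBX29 most, with as few as 54 counts in a library.

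For the gene lists, DESeq2, the block and the omission of not-primed uninfested replicates 1 and 2, or 3 and 4, were added after seeing the data. Without replicates 1 and 2, 2 members in place of 4 fell under caterpillars. The clock genes lower in primed plants under caterpillars numbered 1 with the block, in place of 3. Without replicates 3 and 4, HY5 targets lower in primed uninfested plants numbered 6 in place of 4. The cause of these shifts was not tested.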
